A study of Rattus norvegicus with 24 samples.

Results

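The 3 subunits of renal sodium transport proteins described here in rat kidney were Slc12a1, the sodium-potassium-chloride cotransporter of the thick ascending limb, Scnn1a, the alpha subunit of the epithelial sodium channel, and Atp1b1, a beta subunit of the sodium pump. They were chosen by gene symbol, 3 of 1422 genes with a value. The array carried 6 probe identifiers with these symbols among 3742 in all, a pair for each gene, and 1 of each pair had values. The resulting 3 probes were among the 701 of 1766 measured probes that had a value on all 24 arrays.

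The study paired a rat on low salt with a rat on high salt of the same strain and hybridised total RNA from the kidney of each to a cDNA array with Cy5 and Cy3. The groups were SS rats at 3 days and overnight on high salt, as labelled, and SS-13BN/Mcw rats at the same times, with 3 rat pairs and 6 arrays each. SS is the Dahl salt-sensitive rat, which becomes hypertensive on a high-salt diet. In the consomic strain SS-13BN/Mcw, chromosome 13 is replaced by that of the Brown Norway strain while the remaining genome is SS, and salt raises its blood pressure much less. Both are inbred, so pairs of a strain differ in animal and not in genotype. The labels give kidney with no region, and the title under which the study was published names the renal medulla. Log ratios hold no levels, so the tissue could not be checked against its markers. In such tissue fewer cells of a type and less RNA per cell cannot be told apart. Age and sex are not given in the labels.

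Sodium that is filtered in the kidney is taken back along the nephron. In the thick ascending limb it enters cells through the cotransporter that Slc12a1 encodes, the target of loop diuretics. In the collecting duct it enters through the epithelial sodium channel, which aldosterone regulates and whose alpha subunit is needed to form the channel. In all these segments the sodium pump in the basolateral membrane drives the process, and its beta subunit is needed for the pump to mature and reach the membrane. In the annotation of the rat genome Slc12a1 lies on chromosome 3, Scnn1a on chromosome 4 and Atp1b1 on chromosome 13. Atp1b1 is thus the member that lies on the substituted chromosome, and in SS-13BN/Mcw rats both RNAs of an array carried the Brown Norway allele.

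Every value is a log ratio of 1 rat over the other, in the units of the deposited table. The log base and the numerator are not stated, so genes are described as positive or negative, no fold is given, and no direction with salt is given. An array had a value for 877 to 1412 probes. Precision is limited by how many rat pairs there are, since the arrays of a pair repeat the same rats. Values were centred on the array median. A pair's value is the average of its dye-swapped arrays. Pairs are numbered by the low-numbered rat, and the titles repeat rats 1 to 3 of a strain at both times. Both times of a strain were therefore taken to share these rats (called the shared rat of a pair), so their values are given side by side. The titles give the numbers alone and do not say that the animals are the same. Slide numbers ran from 36 to 41 for SS at 3 days and from 18 to 23 for SS overnight, with no other group between. For SS, slide order and group therefore cannot be told apart. Those of SS-13BN/Mcw ran from 28 to 35 at 3 days and from 24 to 43 overnight. At each time the slide numbers of the strains thus did not overlap, so slide order and strain cannot be told apart either. Tests are limma over all probes of a comparison, with p-values adjusted by Benjamini-Hochberg and a threshold of 0.05. They measure the spread between rat pairs.

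Slc12a1 stood on the negative side in 11 of 12 rat pairs, with pair values from -0.42 to 0.035. Of 701 probes measured in all pairs, 3.57 percent were negative in all 12, and the share negative in 11 was not computed. Pairs of both times were taken to share rats, so these are not counted as 12 independent signs. In SS rats Slc12a1 stood at -0.35, -0.37 and -0.044 at 3 days in pairs 1, 2 and 3. Overnight the SS values were -0.28, -0.39 and -0.17. Both SS groups lay wholly below 0 and overlapped each other. In SS-13BN/Mcw rats it stood at -0.14, 0.035 and -0.20 at 3 days. Overnight the SS-13BN/Mcw values were -0.27, -0.42 and -0.31. In this strain the pair values of both times did not overlap, with the 3-day values nearer to 0, which was the case in this direction for 10.2 percent of 745 probes.

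The group means of Slc12a1 were -0.25 ± 0.18 in SS at 3 days, -0.28 ± 0.11 in SS overnight, -0.10 ± 0.12 in SS-13BN/Mcw at 3 days and -0.33 ± 0.077 in SS-13BN/Mcw overnight (SD, n = 3 pairs each). The order from the lowest was SS-13BN/Mcw overnight, SS overnight, SS at 3 days and SS-13BN/Mcw at 3 days, and each group overlapped its neighbour in that order. By limma SS-13BN/Mcw overnight passed (adjusted p = 0.0239), in a comparison where 10.5 percent of 1100 probes were called and 7.36 percent were called negative. The adjusted p was 0.182 in SS at 3 days, 0.119 overnight in SS, and 0.548 for SS-13BN/Mcw at 3 days, with 0.34, 1.14 and 2.98 percent of probes called. With the shared rat as a block 0.566 percent were called in SS at 3 days. The call was lost without pair 2 (-0.29, adjusted p = 0.106), without pair 3 (-0.34, adjusted p = 0.102), after quantile normalization (-0.26, adjusted p = 0.0651) and in a fit of that group alone (adjusted p = 0.0906). With the low-numbered rat in Cy5 alone the value was 0.061 (adjusted p = 0.734). The number of probes called in this group was 116, against 45 without pair 2 and 12 without pair 3.

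**Figure D1:**
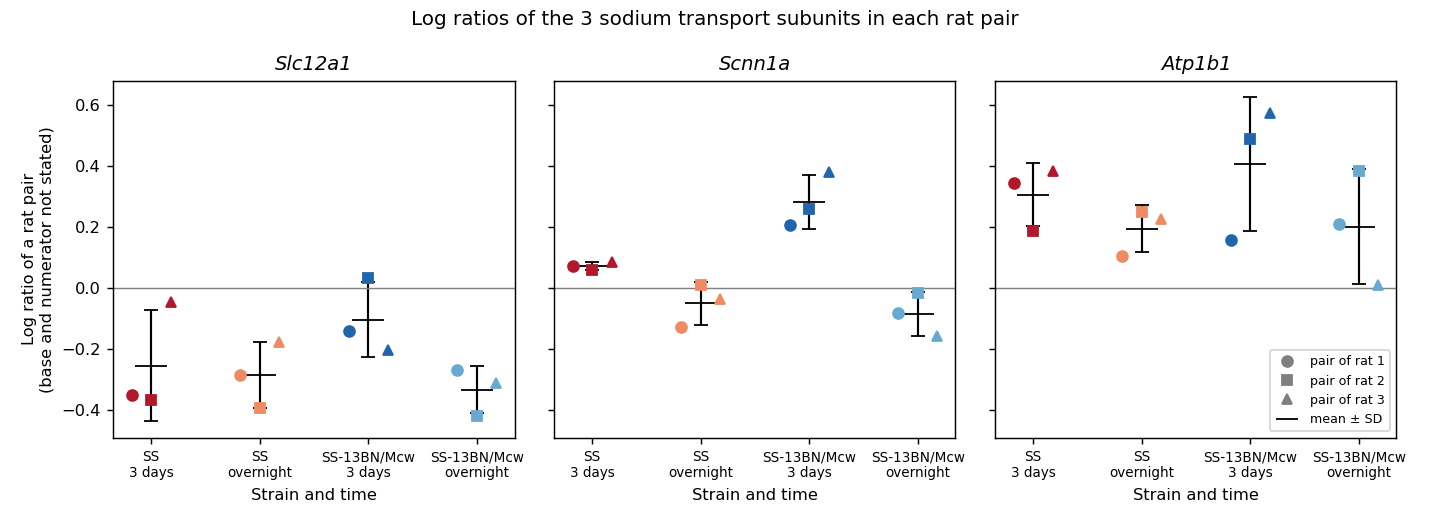
Log ratio of each rat pair (vertical axis, median-centred, mean of the dye-swapped arrays; base and numerator not stated) for Slc12a1, Scnn1a and Atp1b1 in the 4 groups of strain and time (horizontal axis). Marker shapes give the low-numbered rat, and bars give the mean ± SD of 3 pairs. Slc12a1 is negative in 11 of 12 pairs, Atp1b1 is positive in 12 of 12, and Scnn1a is highest in SS-13BN/Mcw at 3 days.

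The Slc12a1 values depended on the dye orientation of the array. On the 12 arrays with the low-numbered rat in Cy3 they averaged -0.60 ± 0.19 (SD) and were negative on 12. On the 12 arrays with that rat in Cy5 they averaged 0.11 ± 0.14 and were positive on 8. The difference between orientations had the same sign in 12 of 12 pairs and averaged -0.71 ± 0.17 (SD), which ranked 28 of 701 probes by absolute size, where the median was 0.241. The mean of both orientations was -0.24. Every pair held 1 array of each orientation, so a dye effect of equal size cancels in its mean as long as both ratios run in 1 direction between the rats, as they were read here.

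Scnn1a had the smallest orientation difference of the members, and Atp1b1 lay between. For Scnn1a the means were 0.084 ± 0.18 with the low-numbered rat in Cy3 and 0.028 ± 0.18 with it in Cy5, a difference of 0.056 ± 0.16 that was above 0 in 7 of 12 pairs. For Atp1b1 they were 0.43 ± 0.16 and 0.12 ± 0.18, a difference of 0.31 ± 0.12 that was above 0 in 12 of 12 pairs. Atp1b1 was positive on 12 of 12 arrays with that rat in Cy3 and on 9 of 12 with it in Cy5.

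**Figure D2:**
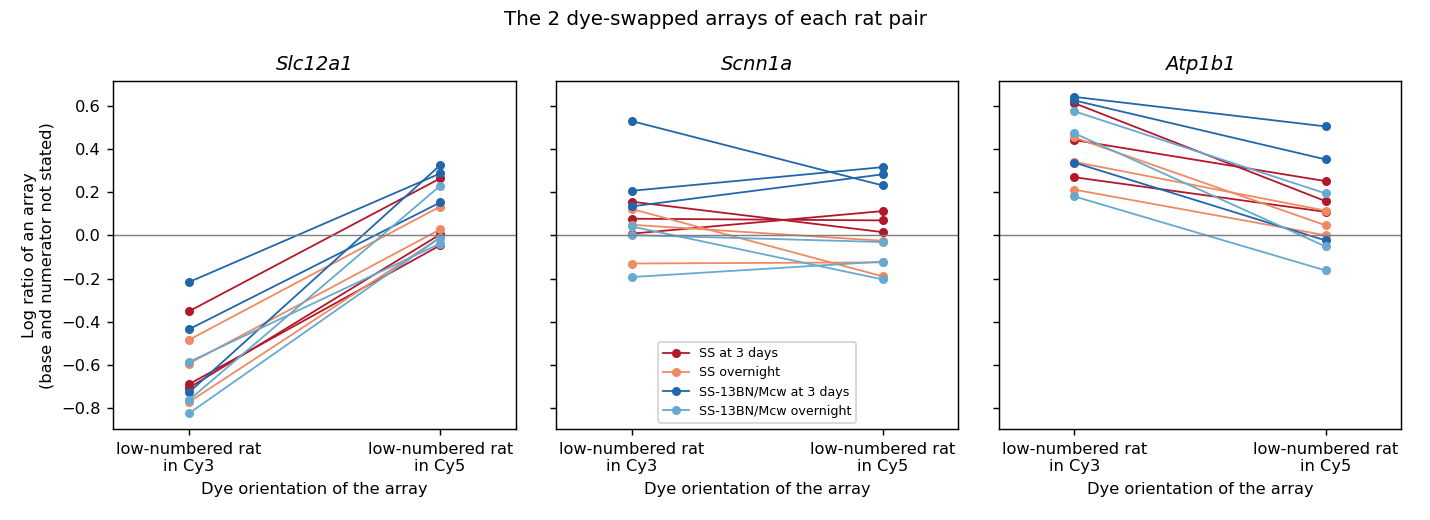
Log ratio of each array (vertical axis; base and numerator not stated) with the low-numbered rat in Cy3 or in Cy5 (horizontal axis), a line joining the arrays of 1 rat pair and colours giving the 4 groups. All 12 lines rise from Cy3 to Cy5 for Slc12a1, all 12 fall for Atp1b1, and 7 of 12 fall for Scnn1a.

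Scnn1a differed from 0 in SS-13BN/Mcw rats at 3 days, where it stood at 0.21, 0.26 and 0.38 in pairs 1, 2 and 3. In SS rats at 3 days it stood at 0.074, 0.061 and 0.086. All 6 pairs of the 3-day groups were thus positive, and the SS values lay below those of SS-13BN/Mcw without overlap. Overnight it stood at -0.13, 0.012 and -0.033 in SS rats. In SS-13BN/Mcw rats it stood at -0.081, -0.014 and -0.16 overnight. In each strain all 3-day values lay above all overnight values. Such a gap in this direction was seen in 1.84 percent of 761 probes in SS and in 10.2 percent of 745 probes in SS-13BN/Mcw.

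The group means of Scnn1a were 0.073 ± 0.013 in SS at 3 days, -0.049 ± 0.071 in SS overnight, 0.28 ± 0.088 in SS-13BN/Mcw at 3 days and -0.084 ± 0.071 in SS-13BN/Mcw overnight (SD, n = 3 pairs each). In order from the lowest, SS-13BN/Mcw overnight and SS overnight overlapped, while SS at 3 days and SS-13BN/Mcw at 3 days each lay apart from the group before. By limma SS-13BN/Mcw at 3 days passed (adjusted p = 0.0293), where 2.98 percent of 907 probes were called and 0.662 percent were called positive. The adjusted p was 0.649 in SS at 3 days, 0.735 overnight in SS, and 0.371 in SS-13BN/Mcw overnight. The value at 3 days in SS-13BN/Mcw was alike in both dye orientations, at 0.29 with the low-numbered rat in Cy3 and 0.28 with it in Cy5. With 1 orientation alone neither passed by limma (adjusted p = 0.0656 and 0.0546). The call was also lost without pair 2 (0.29, adjusted p = 0.126), without pair 3 (0.24, adjusted p = 0.298), in a fit of that group alone (adjusted p = 0.0952) and with a filter of 1 pair and 1 array (adjusted p = 0.0593). With ratios turned by dye the value was 0.0067 (adjusted p = 0.939). The number of probes called in this group was 27, against 0 without pair 2 or without pair 3.

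Atp1b1 was positive in 12 of 12 pairs, from 0.0095 to 0.57, which was so for 1.71 percent of the 701 probes measured in all pairs. In SS rats it stood at 0.35, 0.19 and 0.39 at 3 days. Overnight the SS values were 0.11, 0.25 and 0.23. In SS-13BN/Mcw rats it stood at 0.16, 0.49 and 0.57 at 3 days. Overnight the SS-13BN/Mcw values were 0.21, 0.38 and 0.0095. The 4 groups overlapped, and the lowest and the highest value both came from a pair 3 of SS-13BN/Mcw.

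The group means of Atp1b1 were 0.31 ± 0.10 in SS at 3 days, 0.19 ± 0.077 in SS overnight, 0.41 ± 0.22 in SS-13BN/Mcw at 3 days and 0.20 ± 0.19 in SS-13BN/Mcw overnight (SD, n = 3 pairs each). The order from the lowest was SS overnight, SS-13BN/Mcw overnight, SS at 3 days and SS-13BN/Mcw at 3 days, with overlap between all neighbours. By limma SS-13BN/Mcw at 3 days passed (adjusted p = 0.0351), where 2.98 percent of 907 probes were called and 0.662 percent were called positive. The adjusted p was 0.172 in SS at 3 days, 0.33 overnight in SS, and 0.161 in SS-13BN/Mcw overnight. The call was lost without pair 2 (0.37, adjusted p = 0.18) or pair 3 (0.32, adjusted p = 0.391) of the group, in a fit of that group alone (adjusted p = 0.0729) and with a filter of 1 pair and 1 array (adjusted p = 0.0697). It was also lost with the low-numbered rat in Cy5 alone (0.28, adjusted p = 0.151) and with ratios turned by dye (0.13, adjusted p = 0.0517). Over all probes 27 were called in this group, against 0 without its pair 2 or without its pair 3. Without pair 1, 2 or 3 of SS overnight, which enter only through the shared spread, the adjusted p was 0.0554, 0.051 and 0.0506.

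The strain comparison asks whether the response to salt differs between the salt-sensitive strain and the consomic strain. Slide order and strain cannot be told apart in it at either time. No member passed at either time, and 0 of 824 probes at 3 days and 0 of 1053 overnight passed by limma. An unadjusted p under 0.05 was seen for 69 and 53 of them. Scnn1a had the largest difference of the members at 3 days, -0.21 ± 0.085 for SS minus SS-13BN/Mcw (SE, 95% interval -0.40 to -0.025, adjusted p = 0.528), and its pair values did not overlap, as for 14.5 percent of 704 probes. Slc12a1 differed by -0.15 ± 0.11 at 3 days (95% interval -0.40 to 0.092, adjusted p = 0.668). Atp1b1 differed by -0.099 ± 0.13 (95% interval -0.38 to 0.18, adjusted p = 0.809).

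Overnight the strain differences of the members were nearer to 0, at 0.049 for Slc12a1 (95% interval -0.20 to 0.30), 0.035 for Scnn1a (-0.16 to 0.23) and -0.0070 for Atp1b1 (-0.29 to 0.27), each with an adjusted p of 0.995. Of the 41 measured probes whose genes lie on chromosome 13, with Atp1b1 among them, 18 were tested at 3 days and 22 overnight, and 0 passed by limma (3 at each time had an unadjusted p under 0.05).

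The time comparison asks how the response at 3 days differs from the overnight response in a strain. In SS-13BN/Mcw the difference, 3 days minus overnight, was positive for all 3 members and passed for none, at 0.23 ± 0.11 for Slc12a1 (SE, 95% interval -0.016 to 0.47), 0.37 ± 0.086 for Scnn1a (0.18 to 0.56) and 0.20 ± 0.13 for Atp1b1 (-0.075 to 0.48). The adjusted p was 0.456, 0.276 and 0.541, and 0 of 897 probes passed by limma, with 101 at an unadjusted p under 0.05. Scnn1a ranked 2 of these 897 by p (unadjusted p = 0.00108 by limma). With the same low-numbered rat its differences were 0.29, 0.28 and 0.54 for rats 1, 2 and 3. With that rat as a block the adjusted p was 0.0869. With that rat as a fixed term the adjusted p was 0.0736, over 701 complete probes of which 18 passed. The differences of Slc12a1 for these rats were 0.13, 0.45 and 0.11, also all above 0. Those of Atp1b1 were -0.054, 0.10 and 0.56, so that rat 3 gave most of its mean.

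In SS the differences between 3 days and overnight were 0.029 for Slc12a1 (95% interval -0.22 to 0.27), 0.12 for Scnn1a (-0.064 to 0.31) and 0.11 for Atp1b1 (-0.17 to 0.39), each with an adjusted p of 0.988. For Scnn1a the differences of rats 1, 2 and 3 were 0.20, 0.048 and 0.12, all above 0, whereas those of Slc12a1 (-0.068, 0.023 and 0.13) and Atp1b1 (0.24, -0.061 and 0.16) had both signs. In all, 0 of 880 probes passed by limma, with 17 at an unadjusted p under 0.05. The difference between both strains' time differences was -0.24 ± 0.12 for Scnn1a (SE, 95% interval -0.51 to 0.017), -0.20 ± 0.16 for Slc12a1 and -0.092 ± 0.18 for Atp1b1, each with an adjusted p of 0.972. In that test 0 of 822 probes passed by limma and 20 had an unadjusted p under 0.05.

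**Figure D3:**
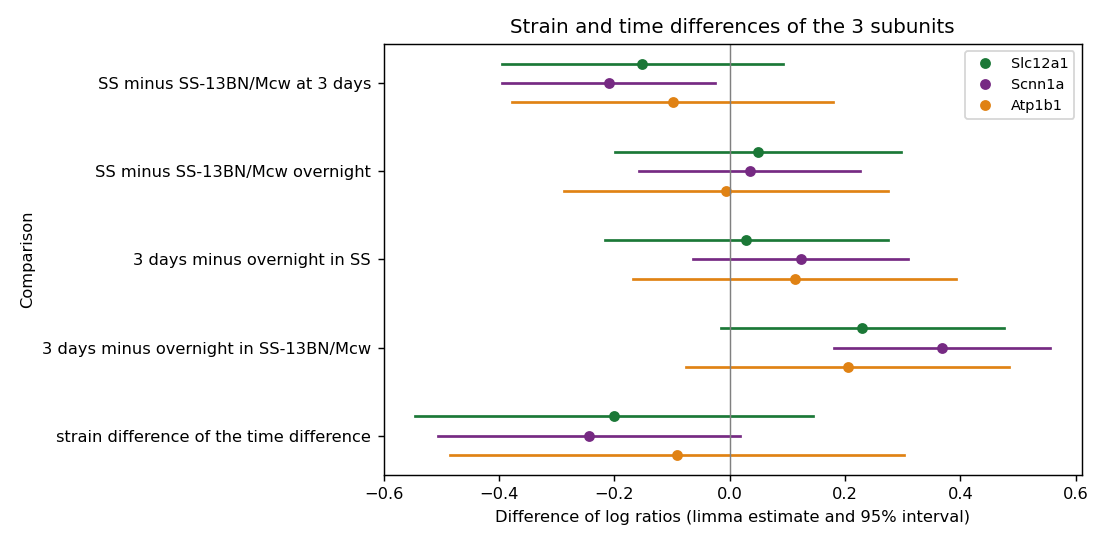
Estimated differences of log ratios (horizontal axis) with 95% intervals from limma for Slc12a1, Scnn1a and Atp1b1 in the 5 strain and time comparisons (vertical axis). The intervals of Scnn1a leave out 0 for SS minus SS-13BN/Mcw at 3 days and for 3 days minus overnight in SS-13BN/Mcw, before adjustment over all probes, and no comparison passed after it.

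Over the mean of the 4 groups Slc12a1 stood at -0.24 ± 0.040 and Atp1b1 at 0.28 ± 0.045 (SE, both adjusted p = 0.00124 by limma). Scnn1a stood at 0.056 ± 0.030 and did not pass (adjusted p = 0.174). In this comparison 28.5 percent of 822 probes were called, 13.4 percent positive and 15.1 percent negative. With the shared rat as a block, where 21.2 percent were called, both calls held (adjusted p = 0.00413 for Slc12a1 and 0.00474 for Atp1b1). On the arrays with the low-numbered rat in Cy5 alone neither held. Slc12a1 then turned to 0.11 (adjusted p = 0.0581) and Atp1b1 stood at 0.12 (adjusted p = 0.0644). The log ratio of Slc12a1 was below that of Atp1b1 in 12 of 12 pairs, by 0.298 to 0.802 in size, and below that of Scnn1a in 12 of 12 pairs. The order of Slc12a1 and Atp1b1 mostly restates their signs. How many other probes are so ordered was not computed.

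Among the members Scnn1a and Atp1b1 were most alike over the 12 pairs (r = 0.767), against 0.51 for Slc12a1 and Scnn1a and 0.367 for Slc12a1 and Atp1b1. These correlations are descriptions, since the points share slides and centring and were taken to share rats. Among 597 other probes with 1 symbol and a value in all pairs, the pattern of Slc12a1 was most like those of Ckb, a brain-type creatine kinase (r = 0.875), Pcyt2, an enzyme of phosphatidylethanolamine synthesis (r = 0.855), and Idh3g, a subunit of a citrate cycle dehydrogenase (r = 0.848). Scnn1a was most like Ldhb, a lactate dehydrogenase subunit (r = 0.869), Acsl1, a long-chain acyl-CoA synthetase (r = 0.838), and Dnase1, a secreted nuclease (r = 0.813). Atp1b1 was most like Mep1b, a brush border metalloprotease subunit (r = 0.824), and Aqp1, a water channel of proximal tubule and thin descending limb (r = 0.806), followed by Scnn1a.

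The group means of these genes are given as a description, since they were chosen for their likeness over the same pairs. Ldhb averaged -0.16 ± 0.074 in SS at 3 days, -0.20 ± 0.15 in SS overnight, 0.16 ± 0.16 in SS-13BN/Mcw at 3 days and -0.15 ± 0.10 in SS-13BN/Mcw overnight (SD, n = 3 pairs each). Acsl1 averaged -0.045 ± 0.15, -0.069 ± 0.098, 0.32 ± 0.23 and -0.078 ± 0.014 in the same order of groups. Dnase1 averaged -0.20 ± 0.21, -0.28 ± 0.11, 0.16 ± 0.24 and -0.35 ± 0.074. Ckb, the gene most like Slc12a1, averaged -0.10 ± 0.26, -0.20 ± 0.32, 0.022 ± 0.13 and -0.34 ± 0.038. Pcyt2 averaged 0.033 ± 0.19, 0.0068 ± 0.20, 0.24 ± 0.14 and -0.089 ± 0.12. Its mean was thus positive in 3 of 4 groups, whereas that of Slc12a1 was negative in all 4. Idh3g averaged -0.084 ± 0.17, -0.13 ± 0.18, -0.0073 ± 0.14 and -0.32 ± 0.047. Mep1b, the gene most like Atp1b1, averaged -0.054 ± 0.12, -0.18 ± 0.042, 0.13 ± 0.19 and -0.27 ± 0.25, so its mean was negative in 3 of 4 groups, whereas that of Atp1b1 was positive in all 4. Aqp1, next in likeness, averaged 0.086 ± 0.066, 0.11 ± 0.036, 0.19 ± 0.10 and 0.054 ± 0.090.

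Of 67 other genes listed for renal sodium transport 12 were measured, and 7 to 9 were tested in a group. In the 4 single groups and the 5 differences 0 of them passed by limma. Over the mean of the 4 groups 3 of 7 passed, against 28.5 percent of all probes. These were Slc12a2, the secretory sodium-potassium-chloride cotransporter, at 0.15 ± 0.048 (SE, adjusted p = 0.0358), Sgk1, a kinase that raises sodium channel number at the membrane, at -0.19 ± 0.058 (adjusted p = 0.0315), and Nr3c2, the mineralocorticoid receptor, at -0.16 ± 0.054 (adjusted p = 0.0437). With the shared rat as a block none of the 3 passed (adjusted p = 0.0718 for Slc12a2, 0.0779 for Sgk1 and 0.0666 for Nr3c2). The list's median was -0.040, against 0.0078 for all probes.

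Slc12a2 stood on the opposite side of 0 from its relative Slc12a1 in 3 of 4 groups. Its means were 0.20 ± 0.21 in SS at 3 days, 0.20 ± 0.16 in SS overnight, -0.050 ± 0.077 in SS-13BN/Mcw at 3 days and 0.25 ± 0.21 in SS-13BN/Mcw overnight (SD, n = 3 pairs each). Nr3c2 averaged -0.24 ± 0.29, -0.21 ± 0.24, -0.018 ± 0.060 and -0.18 ± 0.13 in the same order of groups, with pair 1 of SS lowest at both times (-0.57 at 3 days and -0.48 overnight). Sgk1 averaged -0.17 ± 0.14, -0.10 ± 0.35, -0.39 ± 0.071 and -0.079 ± 0.23, and its 3 pairs of SS-13BN/Mcw at 3 days, from -0.44 to -0.31, were the group farthest from 0 (adjusted p = 0.114 by limma).

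The other pump subunits had means on both sides of 0. Atp1b3, another beta subunit, averaged -0.11 ± 0.16 in SS at 3 days, 0.12 ± 0.058 in SS overnight, -0.069 ± 0.17 in SS-13BN/Mcw at 3 days and 0.15 ± 0.16 in SS-13BN/Mcw overnight (SD, n = 3 pairs each). Fxyd2, the pump's gamma subunit, averaged -0.080 ± 0.036, -0.053 ± 0.098, 0.12 ± 0.061 and -0.14 ± 0.14 in the same order. Fxyd4, a pump regulator of the collecting duct, averaged -0.17 ± 0.12, -0.031 ± 0.098, 0.065 ± 0.12 and 0.088 ± 0.045. None of these passed in any comparison, and over the mean of the 4 groups they stood at 0.023 (Atp1b3), -0.040 (Fxyd2) and -0.012 (Fxyd4).

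Hsd11b2 encodes the enzyme that shields the mineralocorticoid receptor from glucocorticoids. It was positive in 3 of 3 pairs of SS-13BN/Mcw at 3 days, as Scnn1a and Fxyd2 were. The share of all probes positive in 3 of 3 pairs there was not computed. In SS at 3 days Scnn1a was positive in 3 of 3 pairs, while Hsd11b2 stood at -0.24, -0.27 and 0.044. Hsd11b2 averaged -0.16 ± 0.17 in SS at 3 days and -0.12 ± 0.14 in SS overnight (SD, n = 3 pairs each). In SS-13BN/Mcw it averaged 0.27 ± 0.22 at 3 days and -0.23 ± 0.096 overnight (SD, n = 3 pairs each). Its difference between 3 days and overnight in SS-13BN/Mcw was 0.50 ± 0.13 (SE, adjusted p = 0.276 by limma), and with the shared rat as a block the adjusted p was 0.0869.

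**Figure D4:**
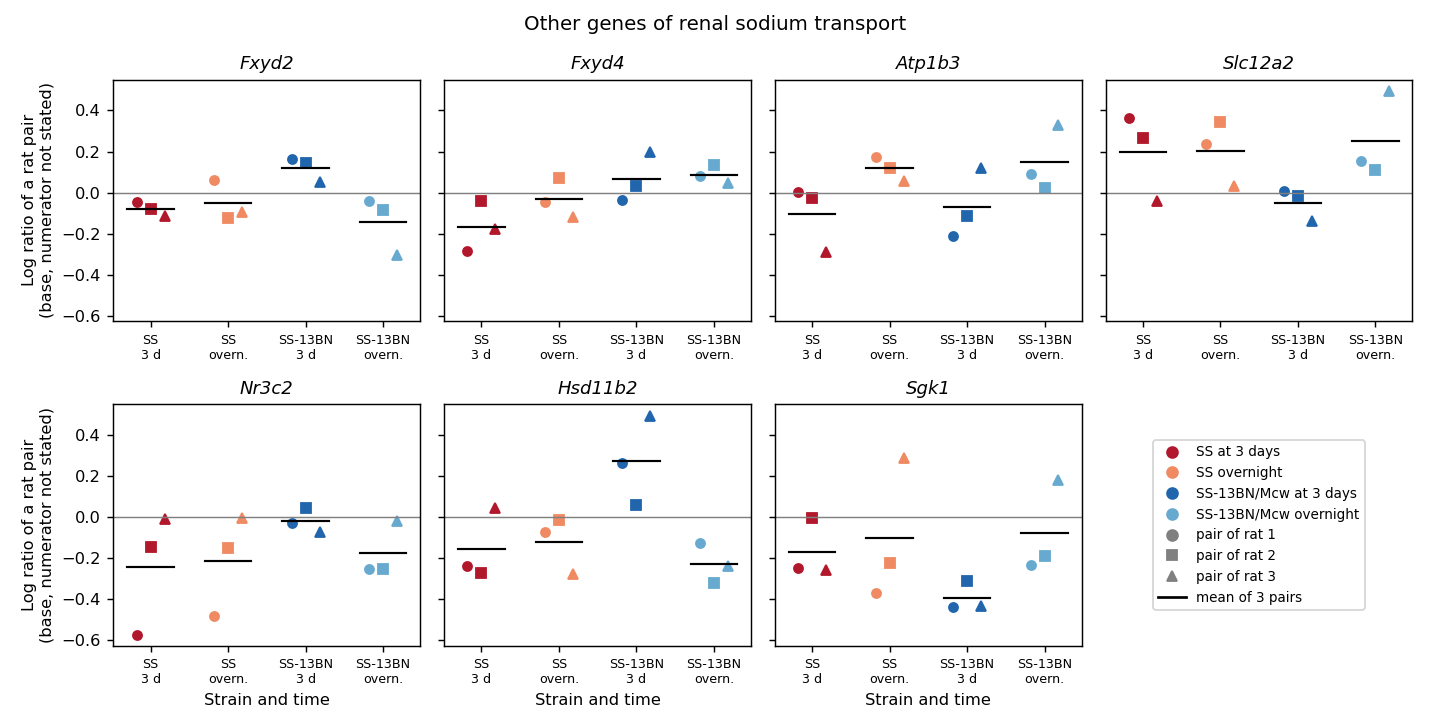
Log ratio of each rat pair (vertical axis; base and numerator not stated) in the 4 groups of strain and time (horizontal axis) for the 7 other sodium transport genes tested in every group. Lines give the mean of 3 pairs and marker shapes the low-numbered rat. Hsd11b2 and Fxyd2 are positive in all 3 pairs of SS-13BN/Mcw at 3 days, and Sgk1 is negative there.

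Markers of other kidney cells also stood away from 0. Most proximal tubule markers were negative (13 of 14 in SS at 3 days, 14 of 16 in SS overnight, 15 of 17 in SS-13BN/Mcw at 3 days and 16 of 18 in SS-13BN/Mcw overnight), with medians of -0.60 in SS at 3 days, -0.58 in SS overnight, -1.01 in SS-13BN/Mcw at 3 days and -1.28 in SS-13BN/Mcw overnight, and with 0, 0, 10 and 15 called negative. Of all probes 0, 0.176, 2.32 and 7.36 percent were called negative in the same order of groups. Anpep, a brush border aminopeptidase, stood at -1.62 and -1.84 in SS-13BN/Mcw at 3 days and overnight. Mme, nearest to 0 of those called there, stood at -0.57 and -0.69. The positive markers were Aqp1 and, where tested, Fbp1. Over the mean of the 4 groups 13 of 14 were called negative, and Aqp1 was called positive (0.11, adjusted p = 0.0217 by limma). Of all probes 15.1 percent were called negative and 13.4 percent positive there. The mean of the proximal tubule markers per pair, over 10 probes, ran from -1.04 to -0.213 in SS at 3 days and from -0.679 to -0.338 in SS overnight. It ran from -1.18 to -0.859 in SS-13BN/Mcw at 3 days and from -1.88 to -0.691 in SS-13BN/Mcw overnight. Fibroblast markers had medians of 0.52 and 0.47 in SS at 3 days and overnight, and of -0.086 and 0.46 in SS-13BN/Mcw at 3 days and overnight, with 0 of 5, 1 of 6, 0 of 5 and 1 of 6 called positive. Of all probes 0.34, 0.966, 0.662 and 3.18 percent were called positive.

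Markers of the segments that hold Slc12a1 and Scnn1a were taken apart from these. The thick ascending limb and distal tubule list, with 4 genes tested and Slc12a1 left out, had medians of -0.15 in SS at 3 days, -0.10 in SS overnight, 0.017 in SS-13BN/Mcw at 3 days and -0.17 in SS-13BN/Mcw overnight, with 0 called in each. Over the mean of the 4 groups 1 of 4 passed, Ppp1r1a, a phosphatase inhibitor, at -0.21 ± 0.040 (SE, adjusted p = 0.00295 by limma), a share near the 28.5 percent of all probes called. The list's mean per pair in SS-13BN/Mcw ran from -0.0543 to 0.0999 at 3 days and from -0.265 to -0.0721 overnight. The collecting duct list, with 4 or 5 genes tested and Scnn1a left out, had medians of -0.15, -0.12, 0.12 and -0.10 in the same order of groups. Its mean per pair in SS-13BN/Mcw ran from -0.0231 to 0.219 at 3 days and from -0.0841 to -0.0449 overnight. Fxyd4 and Hsd11b2 are on both this and the sodium transport list. The part of the marker genes in the members' values was not tested.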

How the data were processed

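Values are deposited as log ratios, 1 for each probe on each of 24 arrays with both dyes, with base, numerator and the authors' steps before it not given in the sources used here. The authors' deposited values had array means within 0.00082 and array medians within 0.067 of 0. Gene symbols came from the platform annotation (1426 measured probes with 1 symbol, 29 with several, 311 with none), updated by gene number for 1421. Chromosomes are those of the RefSeq GRCr8 table, used without coordinates.

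Arrays were centred on the median, and dye-swapped arrays were averaged with no change of sign. Once the average of the remaining arrays with that dye order was subtracted, r between swapped arrays lay between 0.169 and 0.825, above 0 in 12 of 12 pairs. The deposited ratios were therefore read as sharing a direction between rats. Before that step r ran from -0.0595 to 0.749, below 0 in 4 pairs.

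Group means were fitted with limma over the 12 pairs (8 residual degrees of freedom), eBayes, two-sided. Probes needed both orientations in 2 of 3 pairs of each group compared. Titles give the same low-numbered rats to both times of a strain, so same-numbered pairs were taken as linked. Their deviations from group means correlated at 0.521, 0.0592 and 0.646 in SS and 0.394, 0.285 and 0.213 in SS-13BN/Mcw for rats 1, 2 and 3. That rat was a block in an alternative fit. Other alternatives were values as deposited, scaled or quantile-normalized arrays, an array-level fit, the compared groups alone, other filters on missing values, turning by dye, leaving out pairs and, chosen after seeing the data, each dye orientation alone. Fits were also run on simulated pair values drawn independently, with no shared rat and no dye effect. That simulation cannot show how the fits handle either.

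The members and lists were chosen with earlier results of these data known. Genes were named if members, the 3 genes most like each, or genes of the sodium transport list tested in every group. The plan was to name from that list the genes past the threshold. Atp1b3, Fxyd2, Fxyd4 and Hsd11b2 passed in no comparison and were named in addition to it. From the marker lists Ppp1r1a was named as called in its list, and Anpep as an example, not by the smallest p. Outside the plan, Mme was named as the proximal tubule marker called negative nearest to 0, and Aqp1 and Fbp1 as the positive ones. Of the marker lists 19 proximal tubule, 5 thick ascending limb and distal tubule, 5 collecting duct, 7 fibroblast, 1 endothelial, 2 leukocyte and 3 erythroid genes were measured. Over the mean of the 4 groups the endothelial gene stood at 0.069 and the median of 2 tested erythroid genes at 0.013. No leukocyte gene was tested there, and 1 stood at 0.28 in SS at 3 days and 0.33 in SS overnight. Software was R 4.3.3, limma 3.58.1, statmod 1.5.0, matplotlib 3.10.9 and Python 3.11.15.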

Additional observations from a re-analysis of the deposited data

Results flagged for a closer look

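Scnn1a stood on the positive side in all 3 pairs of SS-13BN/Mcw at 3 days and on the negative side in all 3 pairs of SS-13BN/Mcw overnight, a difference of 0.368 between the group means. This was picked out from these same values. For 10.2 percent of 745 probes the 3-day pair values lay above the overnight ones without overlap in this strain. The difference of Scnn1a did not pass over 897 probes by limma (adjusted p = 0.276), nor when the shared rat was a block (adjusted p = 0.0869). Leaving out any 1 of the 12 pairs gave differences from 0.32 to 0.41, with adjusted p from 0.194 to 0.592.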

How the results depend on the processing

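With 3 pairs a group and no stated log base, neither small differences nor folds could be resolved. The causes of the changes below were not tested. Refits of the 30 results on members were compared with the main fit by direction and side of the threshold. Both were the same in 344 of 360 that left out 1 pair, 42 of 60 on 1 dye orientation and 233 of 255 others. Where the pair left out lay outside the comparison, the estimate could not change, so 344 of 360 does not measure stability. Without 1 pair, the call in SS-13BN/Mcw at 3 days was lost in 2 of 12 refits for Scnn1a and 5 of 12 for Atp1b1. The call of Slc12a1 in SS-13BN/Mcw overnight was lost in 2 of 12. Over the refits that left out 1 pair, SS-13BN/Mcw at 3 days gave 0.24 to 0.32 for Scnn1a and 0.32 to 0.53 for Atp1b1, and SS-13BN/Mcw overnight gave -0.36 to -0.29 for Slc12a1. The strain difference overnight gave -0.0050 to 0.10 for Slc12a1, -0.0018 to 0.074 for Scnn1a and -0.10 to 0.085 for Atp1b1. The time difference in SS gave -0.076 to 0.086 for Slc12a1, and the strain difference of the time difference gave -0.22 to 0.0041 for Atp1b1. The mean of the 4 groups stayed past the threshold in all of them for Slc12a1 (-0.27 to -0.23) and Atp1b1 (0.25 to 0.31).

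On arrays with the low-numbered rat in Cy5 alone, Slc12a1 turned positive, at 0.075 in SS at 3 days, 0.051 in SS overnight, 0.25 in SS-13BN/Mcw at 3 days, 0.061 in SS-13BN/Mcw overnight and 0.11 over the 4 groups. Atp1b1 stood at 0.28 in SS-13BN/Mcw at 3 days, -0.0060 in SS-13BN/Mcw overnight and 0.12 over the 4 groups, and Scnn1a at 0.28 in SS-13BN/Mcw at 3 days, none of them past. The overnight strain difference was then -0.010 for Slc12a1 and 0.060 for Atp1b1. With that rat in Cy3 alone, Slc12a1 passed at -0.58 in SS at 3 days, -0.62 overnight in SS, and -0.46 in SS-13BN/Mcw at 3 days, and Atp1b1 at 0.44 in SS at 3 days and 0.41 in SS-13BN/Mcw overnight. Scnn1a stood at 0.014 overnight in SS, and 0.29 in SS-13BN/Mcw at 3 days. Both orientations alone were chosen after seeing the data. With ratios turned by dye, Slc12a1 passed at -0.33 in SS at 3 days, -0.33 overnight in SS, and -0.36 in SS-13BN/Mcw at 3 days. Atp1b1 passed at 0.13 in SS at 3 days, 0.14 overnight in SS, and 0.21 in SS-13BN/Mcw overnight, and missed at 0.13 in SS-13BN/Mcw at 3 days. Scnn1a stood at 0.064 in SS overnight, 0.0067 in SS-13BN/Mcw at 3 days and 0.034 in SS-13BN/Mcw overnight.

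After quantile normalization Slc12a1 passed in SS overnight (-0.32) and missed in SS-13BN/Mcw overnight (-0.26), and the overnight strain difference was -0.063 for Slc12a1 and 0.017 for Atp1b1. With arrays scaled to one spread it was -0.017 and 0.0095. The array-level fit let Atp1b1 pass in SS at 3 days (0.31). The group alone, or a filter of 1 pair and 1 array, left Scnn1a at 0.28 and Atp1b1 at 0.41 in SS-13BN/Mcw at 3 days short of the threshold, and the group alone left Slc12a1 at -0.33 in SS-13BN/Mcw overnight short of it. The fit of compared groups alone was not run for comparisons of all 4 groups. With the low-numbered rat as a replicate block, no member's call changed, and 5 probes in place of 3 passed in SS at 3 days.

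Counts over all probes moved more. In SS at 3 days 3 probes passed, against 9 scaled, 16 after quantile normalization, 36 in the array-level fit and 344 turned by dye. In SS overnight it was 13, against 51, 65, 45 and 325 in that order. In SS-13BN/Mcw at 3 days it was 27, against 61, 64, 58 and 299. In SS-13BN/Mcw overnight it was 116, against 206 in the array-level fit and 309 turned by dye. The group alone gave 0, 31, 30 and 0 in these groups. Leaving out 1 pair gave 0 to 10 in SS at 3 days, with 0 without its own pair 1 or 2, pair 1 or 2 of SS-13BN/Mcw at 3 days or pair 2 of SS-13BN/Mcw overnight. It gave 0 to 21 in SS overnight, with 0 without its own pair 1 or 3. It gave 0 to 50 in SS-13BN/Mcw at 3 days, with 0 without its own pair 2 or 3 and 50 without pair 3 of SS-13BN/Mcw overnight. It gave 12 to 144 in SS-13BN/Mcw overnight, with 45 without its own pair 2 and 12 without its own pair 3. For SS minus SS-13BN/Mcw at 3 days 0 passed, against 7 scaled, 5 after quantile normalization and 7 in the array-level fit. For 3 days minus overnight in SS-13BN/Mcw 0 passed, against 6 in the array-level fit and 18 with the rat as a fixed block over 701 probes.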
